A study of Arabidopsis thaliana with 27 samples.

Results

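The CBF factors and their cold-regulated COR targets were followed across all Arabidopsis epi-line RNA-seq samples. The set holds 10 of the 33977 genes in the count files: the transcription factors *CBF1* (AT4G25490), *CBF2* (AT4G25470) and *CBF3* (AT4G25480), and the effector genes *COR15A* (AT2G42540), *COR15B* (AT2G42530), *COR47* (AT1G20440), *ERD10* (AT1G20450), *KIN1* (AT5G15960), *KIN2* (AT5G15970) and *LTI78*, also called *RD29A* (AT5G52310). They were chosen by identifier, and the choice followed from floral stem results, because *KIN2* and *LTI78* were among the genes that differed between Epi 8 and wild type (WT) there. The floral stem values of the 10 genes are therefore a description. Counts of calls among them in that organ come from the fit over all genes, and nothing is read from them.

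The study pollinated Col-0 WT with the *msh1* T-DNA mutant, selfed the progeny, kept plants with wild type *MSH1*, and took F3 families called epi-lines. *MSH1*, a nuclear gene, encodes a protein that binds DNA in both plastids and mitochondria. Epi 8 and Epi 24 came from the same cross and Epi 10 from another, and each line stands for 1 family. All plants of all groups, WT included, carried wild type *MSH1*. Its own level, in CPM (counts per 1000000 counts of the TMM-scaled library), was 17.3 to 23.6 in leaf, 5.06 to 8.89 in root and 2.06 to 5.50 in floral stem, with epi-lines and WT overlapping in each organ.

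There were 27 libraries from 27 individual plants in 9 groups of 3. Root groups were Epi 8, Epi 24 and WT at 10 days on 0.5 MS medium. Floral stem groups were Epi 8, Epi 24 and WT at 6 weeks. Leaf groups were Epi 8, Epi 10 and WT, with rosette leaves taken at bolting according to the labels. The methods give an age in weeks for leaf and name Epi 8 and WT, so the sources differ on the stage of leaf harvest. Leaf and floral stem plants were grown on peat mix at 22 °C with 12 h of light. Seeds were stratified in the cold before transfer to the chambers, no later cold treatment is given, and the hour of harvest is not given in the sources used here.

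Total counts per library were 48098795 to 90808615 in leaf, 18524351 to 20041205 in root and 18465252 to 21219383 in floral stem. A count of 3 was taken as the floor of detection. Per 1000000 total counts, before TMM scaling, it was worth 0.033 to 0.062 in leaf, 0.150 to 0.162 in root and 0.141 to 0.162 in floral stem. Root and wood markers were highest in the organ that the labels named, and leaf markers were not. The 4 leaf or photosynthesis markers summed to 16501 to 23556 CPM in leaf, 25133 to 38493 in floral stem and at most 286 in root. The 4 root markers summed to 310 to 631 CPM in root and to at most 0.221 CPM elsewhere, and the 3 cellulose synthase genes of woody walls (*CESA4*, *CESA7*, *CESA8*) summed to 507 to 5933 CPM in floral stem against at most 158 CPM in the other organs. The 5 flower markers summed to no more than 11.4 CPM in any floral stem.

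CBF proteins are AP2-type activators, also called DREB1 factors. In the cold their genes are switched on rapidly, and the proteins bind the CRT/DRE element in front of COR genes, whose products protect membranes and proteins during freezing and dehydration. *CBF* transcription is gated by the circadian clock, and several COR genes also respond to drought and abscisic acid through other elements. COR15A and COR15B act in the chloroplast stroma, COR47 and ERD10 are acidic dehydrins, KIN1 and KIN2 are small hydrophilic proteins, and LTI78 is a widely used reporter of cold and drought responses.

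The 10 genes lie in 5 clusters on the TAIR10.1 annotation. The 3 *CBF* genes stand in tandem on chromosome 4 between 13015250 and 13022996, each with 1 exon. *COR15B* and *COR15A* are neighbours on chromosome 2 (17708593 to 17712330), as are *COR47* and *ERD10* on chromosome 1 (7084409 to 7089606), and *KIN1* and *KIN2* on chromosome 5 (5209717 to 5212743). *LTI78* stands alone on chromosome 5 (21240717 to 21243644).

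The core of the CRT/DRE element, CCGAC on either strand, was searched in the 1000 bases before each start codon. All 7 COR genes held 1 to 4 matches and the 3 *CBF* genes held 0, while 39.4% of 27443 genes with such a region held at least 1 match and 11.4% held 2 or more. *LTI78* had 4 matches, *COR15A* and *ERD10* 3 each, *COR15B* and *KIN1* 2 each, and *COR47* and *KIN2* 1 each. The 3 matches of *ERD10* stand 270, 274 and 278 bases before its start codon, so their surroundings overlap. The match nearest the start codon is shown for each COR gene because this element is the one that CBF proteins are known to bind, in a window of 21 bases of TAIR10.1 sequence from RefSeq, written along the strand that carries the core and with the core in capitals.
*COR15A* (chr2:17712220-17712240, minus strand): tttcatggCCGACctgctttt
*COR15B* (chr2:17710126-17710146, minus strand): cttgatggCCGACctcttttt
*COR47* (chr1:7085920-7085940, minus strand): ttcatctaCCGACttcaagaa
*ERD10* (chr1:7089365-7089385, minus strand): ccgaccgaCCGACgtaaaaga
*KIN1* (chr5:5209806-5209826, plus strand): aatagctaCCGACataaggca
*KIN2* (chr5:5211773-5211793, plus strand): aaaagctaCCGACataaggca
*LTI78* (chr5:21240713-21240733, plus strand): agatcaagCCGACacagacac

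Between the windows of neighbouring genes, *KIN1* and *KIN2* shared 20 of 21 bases, *COR15A* and *COR15B* 17 and *COR47* and *ERD10* 12. *COR47* shared 13 bases with each *KIN* gene, *ERD10* shared 12 with each, and every other pair shared 6 to 9. The positions relative to transcripts differed, as read from the window of 21 bases around each core. Of 16 matches, 7 lay before every annotated transcript of their gene, in *COR15A*, *COR15B*, *KIN1* and *LTI78*, and 8 lay inside the leader exon of at least 1 transcript, among them all those of *COR47*, *ERD10* and *KIN2*. The window of the 1 remaining match spans the annotated start of the *LTI78* transcript, and its core lies inside the transcript.

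Other motifs were counted in the same windows. The ABRE core ACGTG, bound by abscisic acid response factors, was present before all 10 genes and before 54.3% of all genes, from 1 match in *COR47* and *LTI78* to 7 in *KIN2*. The evening element AAATATCT, a site of morning clock factors, occurred 2 or 3 times before each *CBF* gene and before *KIN1* and *KIN2*, while 1.84% of all genes had 2 or more. It occurred 1 time before *COR15A*, *COR15B* and *ERD10*, and 15.3% of all genes had at least 1. The CAMTA site CCGCGT occurred before *CBF2*, *COR47* and *ERD10* and before 6.3% of all genes. The G-box CACGTG occurred before every gene of the set except *CBF3*, *COR47* and *LTI78*, and before 15.1% of all genes. The CACGTG motif contains the ABRE core, so matches to both overlap. A match describes the sequence and says nothing of binding.

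**Figure D1:**
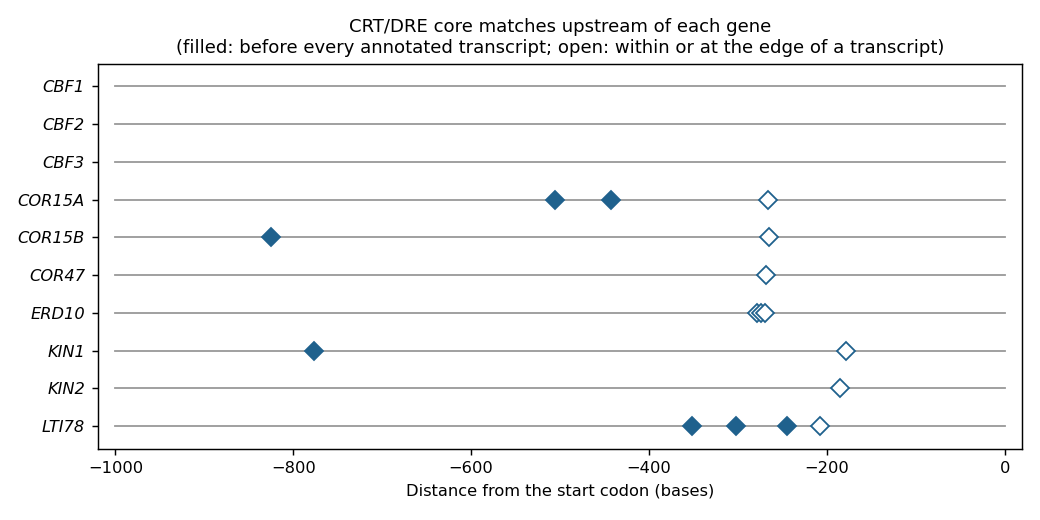
Distance in bases from the start codon (x axis) of each CRT/DRE core match in the 1000 bases before the 10 genes (1 line per gene). Filled diamonds lie before every annotated transcript and open diamonds within a transcript or at its edge. The 7 COR genes carry 16 matches and the 3 CBF genes carry 0.

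In floral stem the *CBF* genes and the COR genes of Epi 8 lay on opposite sides of WT. All 3 *CBF* genes were higher in Epi 8 than in WT without overlap between plants, and all 7 COR genes had lower means, 6 of them without overlap. Over all 19594 genes tested, the 2 groups did not overlap for 12.2% of genes (5.46% higher and 6.76% lower in Epi 8), and the median log2 fold change (log2FC) was 0.01. Among the 10 genes the median was 3.91 for the *CBF* genes and -1.53 for the COR genes.

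*CBF2* had 10.1, 7.96 and 3.96 CPM in the Epi 8 floral stems, against 0.221, 1.24 and 0 in WT and 0.699, 0.846 and 0.818 in Epi 24. The 3 Epi 8 plants stood above all other floral stems, and the WT values rested on 26 counts in all. The log2FC of Epi 8 against WT was 3.91 (SE 0.897).

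*CBF1* had 6.61, 7.59 and 1.79 CPM in Epi 8, against 0.165, 0.395 and 0 in WT and 0.699, 0.106 and 0.600 in Epi 24. Epi 8 was again above every other plant, with plant 3 the lowest of its line. The log2FC of Epi 8 against WT was 4.79 (SE 0.978), resting on 306 counts in Epi 8 and 10 in WT.

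*CBF3*, the most abundant of the 3 genes in floral stem, had 37.3, 35.6 and 9.54 CPM in Epi 8 and 6.45, 7.12 and 1.94 in WT. Epi 24 spread from 1.69 to 16.3 CPM and overlapped both. Plant 3 was the lowest for *CBF3* in Epi 8 and in WT. The log2FC of Epi 8 against WT was 2.43 (SE 0.792).

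*KIN2* had 68.3, 70.6 and 50.5 CPM in Epi 8 floral stems, against 443, 340 and 266 in WT and 305, 275 and 271 in Epi 24. The Epi 8 plants were far below all 6 others, and WT and Epi 24 overlapped. Its log2FC of -2.45 (SE 0.232) was the lowest of the 10 genes.

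*LTI78* had 194, 169 and 216 CPM in Epi 8, 951, 797 and 667 in WT, and 774, 648 and 596 in Epi 24. The separation of Epi 8 from the other 6 plants was again complete, with a log2FC of -2.04 (SE 0.202) against WT. *KIN1*, at 1.33, 0.890 and 0.781 CPM in Epi 8 and 3.21 to 4.96 in WT, had a log2FC of -2.04 (SE 0.398) from 14 to 26 counts per Epi 8 plant. The fold change of *KIN1* was that of *LTI78* to 2 decimals.

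The dehydrin genes stayed abundant in Epi 8. *COR47* had 400 to 505 CPM in Epi 8 against 1030 to 1124 in WT and 922 to 1033 in Epi 24, and *ERD10* had 292 to 359 against 534 to 804 and 594 to 900. Neither gene overlapped between Epi 8 and the other lines, and their log2FC against WT were -1.20 (SE 0.168) and -0.9997 (SE 0.221), the smallest in size of the COR genes. For the chloroplast proteins, *COR15B* was at 36.3 to 56.6 CPM in Epi 8 and 83.9 to 176 in WT (log2FC -1.53, SE 0.271). *COR15A*, at 53.6 to 73.4 CPM in Epi 8 and 73.2 to 253 in WT, was the COR gene whose groups overlapped (log2FC -1.53, SE 0.451), since WT plant 3, at 73.2 CPM, was below the highest Epi 8 plant.

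In the same fit 5 genes passed an FDR under 0.05 with an absolute log2FC of at least 0.5, which is 0.0255% of the genes tested, and *KIN2* and *LTI78* were 2 of them. The choice of the 10 genes used this contrast, so nothing is read from that count. It was 0 of 10 without Epi 8 plant 2, without Epi 8 plant 3, without WT plant 2, and with only the 6 libraries compared. Under DESeq2 it was 10 of 10, with 376 of all genes called. With any 1 plant left out the log2FC of *KIN2* stayed between -2.62 and -2.23 and that of *LTI78* between -2.17 and -1.89. These values also come from the contrast behind the choice of genes and are a description.

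**Figure D2:**
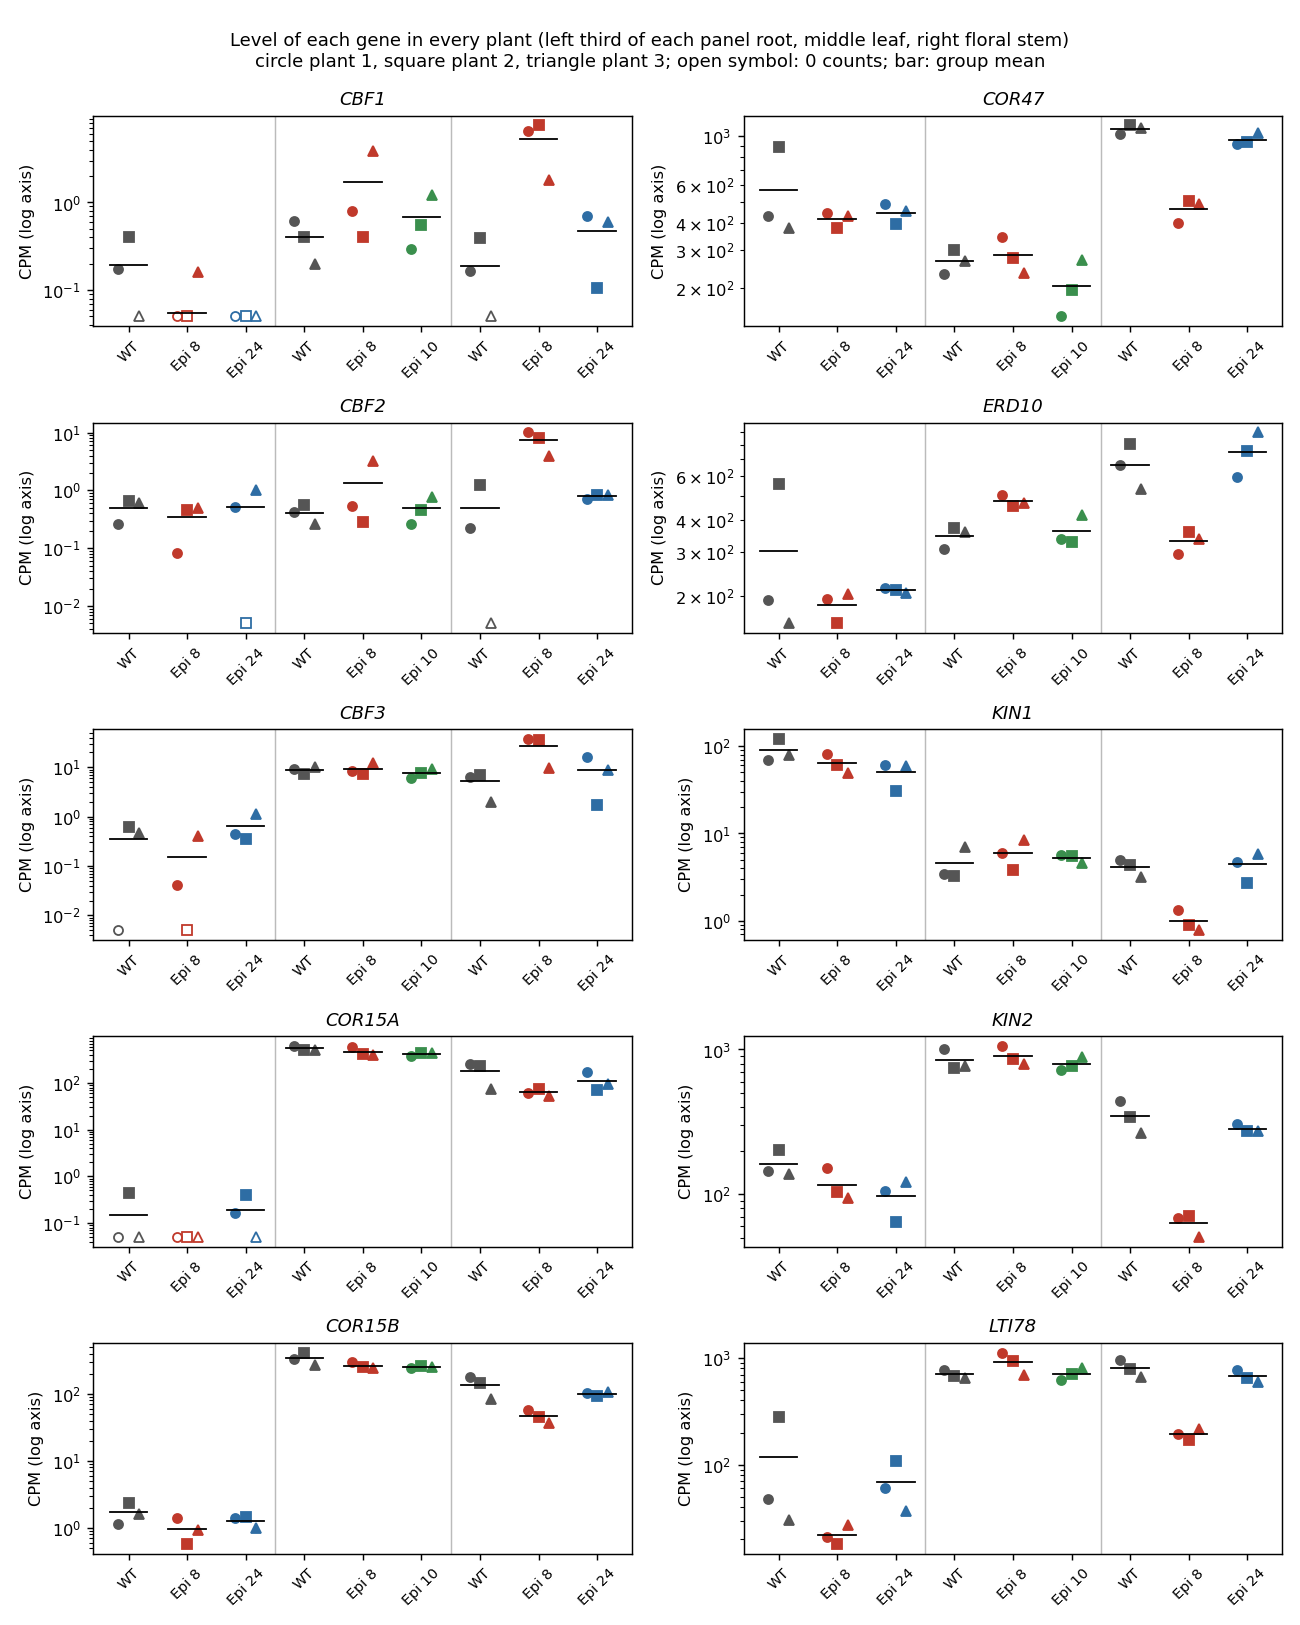
CPM on log axes of the 10 genes in each of the 27 plants, with 1 panel per gene, roots on the left, leaves in the middle and floral stems on the right, and bars at the group means. Open symbols at the foot of a panel are plants with 0 counts. In floral stem the red Epi 8 points lie above WT for the CBF genes (CBF2 at 3.96 to 10.1 CPM) and below WT for KIN2 (50.5 to 70.6 CPM) and LTI78 (169 to 216 CPM).

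The 3 floral stem comparisons share libraries, so they are not independent of each other. Between Epi 8 and Epi 24, which come from the same cross, *CBF1* and *CBF2* were higher in Epi 8 (log2FC 3.52, SE 0.887, and 3.23, SE 0.855), *CBF3* overlapped (1.65, SE 0.766), and all 7 COR genes had lower means, from -2.15 (SE 0.230) for *KIN2* to -0.81 (SE 0.444) for *COR15A*. Here 2 *CBF* and 6 COR genes did not overlap, against 26.4% of all genes (12.1% higher and 14.3% lower). The genes called were 3 in number (0.0153% of those tested), and *KIN2* and *LTI78* were 2 of them. The Epi 8 libraries are those behind the choice of genes, so nothing is read from this count either. Both calls were lost with any 1 of the 6 plants left out.

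For Epi 24 against WT the values of these genes lay nearer to 0. The COR genes had log2FC from -0.72 (*COR15A*) to 0.17 (*ERD10*) and the *CBF* genes from 0.68 (*CBF2*) to 1.27 (*CBF1*), and the groups overlapped for all 10 genes, while 9.88% of all genes did not overlap. By edgeR 0 of 19594 genes were called (0%), with 995 past the fold limit when p was not adjusted, and 22 under DESeq2, where 0 of the 10 genes were called.

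The plants of Epi 8 stood apart in floral stem, so no correlation of *CBF* with COR levels is given over the 9 plants. Within Epi 8 the summed *CBF* level was 54.0 CPM in plant 1, 51.1 in plant 2 and 15.3 in plant 3. *KIN2* in these plants was 68.3, 70.6 and 50.5 CPM. Plant 3, with the least *CBF*, had the least *KIN2* and the most *LTI78* of the line, so COR genes differed in their order among these plants. Epi 24 plant 1 had a *CBF* sum of 17.7 CPM with *KIN2* at 305 CPM, and Epi 8 plant 3 a lower *CBF* sum with less *KIN2*.

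**Figure D3:**
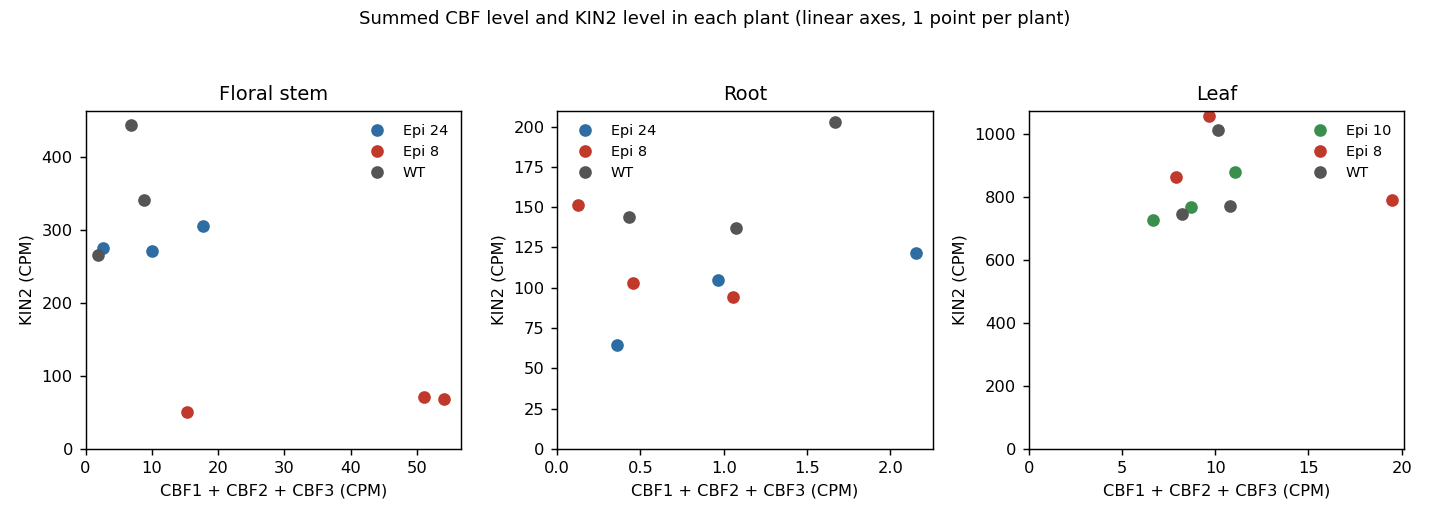
Summed CPM of CBF1, CBF2 and CBF3 (x axis) against KIN2 CPM (y axis) in each plant, with 1 panel per organ, linear axes and colours for the lines. In floral stem the 3 Epi 8 plants lie at 50.5 to 70.6 CPM of KIN2 with a CBF sum of 15.3 to 54.0 CPM, and the other 6 plants at 266 to 443 CPM with a CBF sum of 1.94 to 17.7 CPM.

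Other genes of the pathway were described from 4 lists. Of 19 further cold-induced genes, 16 had lower and 3 higher means in Epi 8 than in WT floral stem, with a median log2FC of -0.87. *COR27* and *COR28*, cold-induced regulators of the clock and of light responses, had the smallest p of this list. *COR27* had 0.973, 0.157 and 0.669 CPM in Epi 8 against 4.19, 13.0 and 8.78 in WT (log2FC -3.82, SE 0.603), and *COR28* had 2.56, 1.73 and 4.96 against 13.1, 20.2 and 28.8 (log2FC -2.73, SE 0.420). Of 12 tested cold-induced transcription factors other than the 3 *CBF* genes, 9 had higher means, with a median of 0.81. The zinc finger gene *ZAT12* had a log2FC of 1.62 (SE 0.416) and *RAV1* 1.03 (SE 0.347), both without overlap.

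Among 21 tested regulators that act upstream of the *CBF* genes, 12 had higher and 9 lower means, with a median of 0.07. The clock gene *LHY*, which binds evening elements, had 49.4, 45.2 and 56.8 CPM in Epi 8 against 22.5, 16.0 and 17.4 in WT and 14.8 to 23.9 in Epi 24 (log2FC against WT 1.45, SE 0.211). *PIF7*, a light-signalling repressor of *CBF* genes, was at 20.3 to 33.2 CPM in Epi 8 and 5.63 to 7.75 in WT (log2FC 2.00, SE 0.310). Both genes separated Epi 8 from WT in all 3 plants. The part of the clock in the *CBF* and COR values was not tested.

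Of 14 tested genes of abscisic acid and drought responses, 6 had higher and 8 lower means in Epi 8 than in WT, with a median of -0.33. *RD29B*, the abscisic acid-responsive neighbour of *LTI78*, was at 0.367 to 0.461 CPM in Epi 8 and 1.93 to 4.66 in WT, and the lipid transfer gene *LTP3* had a log2FC of -1.05 (SE 0.234). In Epi 24, where the COR genes had a median of -0.26 against WT, 14 of 14 genes of this list had higher means than WT with a median of 1.27. Among them was *NCED3*, the key enzyme gene of abscisic acid synthesis, at 11.2 to 44.6 CPM against 3.50 to 5.07. *NCED3* was also higher in Epi 8 than in WT without overlap (log2FC 1.40, SE 0.531). Of the 66 tested genes of the 4 lists, edgeR called 0 in each floral stem comparison. With the fold limit, an unadjusted p under 0.05 was passed by 10 with higher and 12 with lower values in Epi 8 against WT (7.23% of all genes), by 12 with higher values in Epi 24 against WT (5.08%) and by 6 with higher and 23 with lower values in Epi 8 against Epi 24 (14.2%). DESeq2 called 12, 1 and 19 of the 66 in the same order, and 376, 22 and 697 of all genes.

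Markers of tissue composition and handling were read beside these values. The 3 woody wall genes summed to 507 to 1665 CPM in Epi 8, 3683 to 4297 in Epi 24 and 1174 to 5933 in WT, and the 4 leaf or photosynthesis markers to 25133 to 32494, 32528 to 38134 and 35413 to 38493 CPM. The 5 touch and wound genes summed to 245 to 293 CPM in Epi 8, 118 to 457 in Epi 24 and 81.9 to 261 in WT. Of these genes 4 had higher means in Epi 8 than in WT, and 2 did not overlap. *WRKY40* was at 19.6, 28.6 and 23.2 CPM in Epi 8, 1.10, 1.53 and 5.94 in WT and 2.33 to 25.3 in Epi 24 (log2FC of Epi 8 against WT 3.09, SE 0.823, edgeR FDR = 0.266). *JAZ1*, a repressor of jasmonate responses, was at 25.2, 49.3 and 47.8 CPM against 6.12, 17.9 and 15.1 in WT and 24.1 to 74.9 in Epi 24 (log2FC 1.67, SE 0.495, edgeR FDR = 0.325). The 4 root markers were at 0 in Epi 8 and Epi 24. The part of stem maturity or handling in the *CBF* and COR values was not tested, and in bulk tissue fewer expressing cells and less RNA per cell cannot be told apart.

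In root the COR genes of Epi 8 also had lower means than WT, and no gene was called. The test covered 8 of the 10 genes, because *CBF1* and *COR15A* did not pass the filter on low counts. All 8 had lower means in Epi 8, with a median log2FC of -0.65. The edgeR test called 0 of 8, and 0 of 20787 genes overall (0%), against 2 of the 8 and 628 genes (3.02%) when the same fold limit was combined with an unadjusted p under 0.05. DESeq2 called 0 of the 8 and 30 genes overall.

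*LTI78* had 21.0, 18.1 and 27.4 CPM in Epi 8 roots, 48.0, 278 and 30.5 in WT and 60.7, 108 and 36.5 in Epi 24. Epi 8 was below all 6 other roots, and WT plant 2 stood far above every other root. The log2FC against WT was -2.44 (SE 0.617, edgeR unadjusted p = 0.0013, FDR = 0.598), and it was -0.85 without WT plant 2. With no filter on low counts the FDR was 0.0432. *LTI78* was the 1 gene of the 8 whose Epi 8 and WT roots did not overlap, against 13.7% of all genes.

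WT root plant 2 also held the most *ERD10* (557 CPM against 155 and 192 in the other WT roots), *COR47* (889 against 380 and 432), *KIN2* (203 against 137 and 144) and *COR15A* (11 counts against 0 and 0). For *ERD10* the log2FC of Epi 8 against WT was -0.73 (SE 0.331) with all plants and 0.06 without this plant, and for *COR47* -0.46 (SE 0.236) and 0.01.

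In Epi 24 roots the 6 tested COR genes had lower means than WT and the 2 tested *CBF* genes higher ones. Without WT plant 2 the log2FC of *COR47*, *ERD10* and *LTI78* were above 0, at 0.12, 0.26 and 0.78. *KIN1* was at 60.6, 30.6 and 59.9 CPM in Epi 24 and 69.2, 120 and 78.9 in WT, with a log2FC of -0.84 (SE 0.257, edgeR unadjusted p = 0.00553, FDR = 0.673). *KIN2* was at 105, 64.5 and 121 CPM against 144, 203 and 137 (log2FC -0.74, SE 0.230, edgeR FDR = 0.673). The adjacent pair was the only one of the 8 genes without overlap, against 10.7% of all genes, and 0 of 8 were called (0% of all genes; 2 of 8 and 3.7% of genes at an unadjusted p with the fold limit; 0 of 8 under DESeq2). This comparison shares its WT roots with that of Epi 8.

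Between the epi-line roots, *LTI78* had a lower mean in Epi 8 than in Epi 24 (log2FC -1.63, SE 0.604, edgeR unadjusted p = 0.0164, FDR = 0.345) and *KIN1* and *KIN2* had higher means (0.32, SE 0.256, and 0.24, SE 0.229). *LTI78* and *ERD10* did not overlap, against 17.3% of all genes. Calls by edgeR were 0 of the 8 genes and 0.0192% of all genes. With an unadjusted p and the fold limit, 1 of the 8 and 5.2% of all genes passed, and DESeq2 called 0 of the 8.

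*CBF* transcripts were scarce in root. *CBF1* was at 0 counts in 6 of 9 roots and at most 10 counts, *CBF2* reached 24 counts and *CBF3* 26. *COR15A* was also at 0 counts in 6 of 9 roots. The floor of 3 counts was worth up to 0.162 per 1000000 total counts there, before TMM scaling. A count of 0 therefore does not show absence. The log2FC of Epi 8 against WT root were -0.57 (SE 1.14) for *CBF2* and -1.26 (SE 1.35) for *CBF3*, so each SE exceeded the size of its value.

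Of 64 tested genes of the 4 pathway lists, both edgeR and DESeq2 called 0 in each root comparison. Without adjustment of p, and with the fold limit, 10 passed for Epi 8 against WT (3.02% of all genes), 4 for Epi 24 against WT (3.7%) and 6 for Epi 8 against Epi 24 (5.2%). In Epi 8 against WT the median log2FC was -0.04 for 21 upstream regulators, 0.14 for 11 transcription factors, -0.10 for 19 further cold-induced genes and -0.63 for 13 abscisic acid and drought genes, of which 11 had lower means. *CCA1*, a clock gene, had a log2FC of -1.04 (SE 0.243, edgeR FDR = 0.543) and *LHY* one of -0.64 (SE 0.231, edgeR FDR = 0.853). *COR28* had a log2FC of 1.11 (SE 0.272, edgeR FDR = 0.549), and *HB-7*, a drought-induced homeobox gene, one of -0.63 (SE 0.163, edgeR FDR = 0.598).

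In Epi 24 against WT roots the list medians were 0.02 (upstream), 0.08 (factors), -0.09 (cold-induced) and -0.34 (abscisic acid and drought, 12 of 13 lower), and the smallest p of each list belonged to *CCA1* (log2FC -0.76, SE 0.241), *RAV1* (-0.35, SE 0.208), *ADS2* (0.29, SE 0.126) and *LEA7* (-2.63, SE 1.24). For Epi 8 against Epi 24 the medians were -0.09, 0.10, -0.07 and -0.47, in the same order of lists. None of these genes passed the test.

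**Figure D4:**
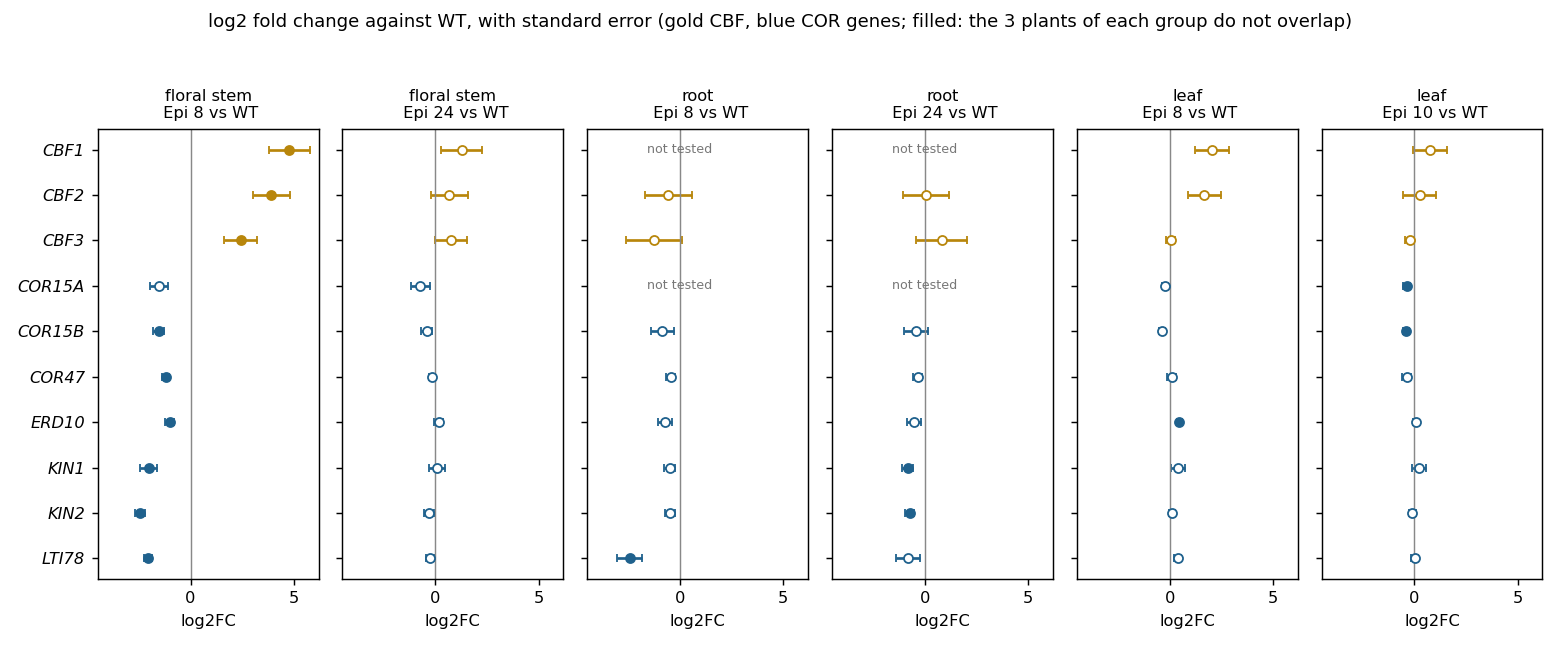
log2FC against WT with its standard error (x axis) for the 10 genes in the 6 comparisons with WT, CBF genes in gold and COR genes in blue. Filled points mark genes whose 3 plants per group do not overlap. Epi 8 floral stem spans 4.79 for CBF1 to -2.45 for KIN2, and LTI78 in Epi 8 root lies at -2.44.

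In leaf all COR genes except *KIN1* were abundant in all lines, and none of the 10 genes passed the test. For Epi 8 against WT 8 of 10 genes had higher means, with a median log2FC of 0.24. Calls by edgeR were 0 of 10, against 0.953% of all genes. At an unadjusted p with the fold limit 1 of 10 passed, against 7.11% of all genes, and DESeq2 called 0 of 10.

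*ERD10* was the 1 gene without overlap, at 503, 456 and 470 CPM in Epi 8, 306, 373 and 359 in WT and 337, 328 and 421 in Epi 10. Epi 8 leaves were above all other leaves, and 25.9% of all genes did not overlap between Epi 8 and WT. The log2FC was 0.46 (SE 0.118, edgeR unadjusted p = 0.00281, FDR = 0.0866), and 0.40 against Epi 10 (SE 0.118, edgeR FDR = 0.621).

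*CBF1* had 0.802, 0.400 and 3.91 CPM in Epi 8 leaves against 0.614, 0.402 and 0.200 in WT, and *CBF2* had 0.540, 0.288 and 3.24 against 0.418, 0.556 and 0.262. In both genes plant 3 of Epi 8 stood apart and the other plants overlapped WT. The log2FC were 2.03 (SE 0.819, edgeR FDR = 0.206) and 1.68 (SE 0.795, edgeR FDR = 0.264), and without this plant 0.56 and 0.01. *CBF3* had 8.30, 7.22 and 12.3 CPM against 9.14, 7.25 and 10.3 (log2FC 0.05, SE 0.222).

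Epi 8 leaf plant 3 had the lowest total count of the leaf libraries, and other fast-responding genes were high in it too. Among these, picked after their values were seen, *ZAT12* was at 23.3 CPM in this plant and 0.771 to 5.02 in the other leaves, *ZAT10* at 70.9 against 4.08 to 13.5, and *WRKY40*, one of the touch and wound genes, at 36.4 against 4.96 to 13.6. The part of handling in these values was not tested.

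The other COR genes of leaf overlapped between Epi 8 and WT. *LTI78* was at 1118, 942 and 691 CPM in Epi 8 and 776, 683 and 649 in WT (log2FC 0.38, SE 0.166, edgeR FDR = 0.233), and *COR15B* at 297, 248 and 242 against 335, 410 and 269 (-0.37, SE 0.142, edgeR FDR = 0.189). *KIN2* ranged from 791 to 1058 CPM in Epi 8 and 746 to 1014 in WT. *COR15A*, *COR47* and *KIN1* had log2FC of -0.22 (SE 0.156), 0.10 (SE 0.205) and 0.40 (SE 0.329). 

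Every plant of Epi 10, which came from the other cross, lay below every WT plant for *COR15A* and *COR15B*. *COR15A* was at 380, 447 and 441 CPM against 623, 520 and 506 (log2FC -0.38, SE 0.156, edgeR FDR = 0.683), and *COR15B* at 246, 265 and 254 against 335, 410 and 269 (-0.41, SE 0.142, edgeR FDR = 0.683). These 2 of 10 genes did not overlap, against 13.7% of all genes (7.24% lower in Epi 10), and *COR47* had a log2FC of -0.38 (SE 0.206) with overlap. None of the 10 genes (0 of 10) and 0% of all genes were called by edgeR. An unadjusted p with the fold limit was passed by 0 of 10 and by 2.25% of all genes, and DESeq2 called 0 of 10. Without the fold limit *COR15A* and *COR15B* had unadjusted p of 0.0332 and 0.0154.

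Between the 2 epi-lines all 10 genes had higher means in Epi 8 than in Epi 10, with log2FC from 0.04 (*COR15B*, SE 0.142) to 1.42 (*CBF2*, SE 0.787) and a median of 0.32. *ERD10* did not overlap, against 13.6% of all genes. Again edgeR called 0 of 10 genes and 0% of all genes, an unadjusted p with the fold limit was passed by 0 of 10 and 1.5% of all genes, and DESeq2 called 0 of 10. *CBF1* and *CBF2* had log2FC below 0 without Epi 8 plant 3, and *COR15A* and *COR15B* without Epi 8 plant 1.

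Of 66 tested genes of the 4 pathway lists, edgeR called 0 in each leaf comparison. When p was not adjusted and the fold limit was kept, 13 passed in Epi 8 against WT (7.11% of all genes), 3 in Epi 10 against WT (2.25%) and 5 in Epi 8 against Epi 10 (1.5%). In the same order DESeq2 called 5, 0 and 0 of them, and 702, 21 and 59 of all genes. In Epi 8 against WT 11 of 11 tested cold-induced transcription factors had higher means, with a median of 0.78. Among them *ZAT12* and *ZAT10* were high in Epi 8 plant 3, as given above, and the median without that plant was not tested. The smallest p belonged to *ZAT6* (log2FC 1.52, SE 0.361, edgeR FDR = 0.0719) and *ERF5* (1.08, SE 0.312, edgeR FDR = 0.11). Of the 11 factors 4 did not overlap, against 25.9% of all genes. The further cold-induced genes had a median of 0.01 (10 of 18 higher), upstream regulators 0.21 (18 of 22 higher) and abscisic acid and drought genes 0.41 (14 of 15 higher). *CAMTA2*, a calmodulin-binding activator of *CBF* genes, had a log2FC of 0.39 (SE 0.084, edgeR FDR = 0.0562), and *LHY* 0.79 (SE 0.212, edgeR FDR = 0.0941). In Epi 10 *LHY* had a log2FC of 0.76 (SE 0.212, edgeR FDR = 0.683), at 4.48 to 4.90 CPM against 2.26 to 3.80 in the shared WT leaves.

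For Epi 10 against WT the list medians were 0.03 (upstream), 0.18 (factors), -0.05 (cold-induced) and 0.16 (abscisic acid and drought), and for Epi 8 against Epi 10 0.12, 0.60, 0.06 and 0.31. The transcription factors had higher means in Epi 8 than in Epi 10 for 11 of 11 genes, with the *ZAT* values of Epi 8 plant 3 given above.

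For the 8 genes with enough counts in root, the log2FC of Epi 8 against WT lay higher in leaf than in root, and the difference passed the test for none of them. It was 2.81 for *LTI78* (SE 0.707, edgeR unadjusted p = 0.000626, FDR = 0.481) and 1.18 for *ERD10* (SE 0.419, edgeR unadjusted p = 0.0101, FDR = 0.522). Without WT root plant 2 these became 1.21 and 0.38. *CBF1* and *COR15A* were at 0 counts in most roots, so the sizes of their fitted differences depend on the prior count and are not described. The interaction test called 0 of 10 genes and 0% of 22442 genes, with 3 of 10 (*LTI78*, *ERD10* and *CBF1*) and 6.98% at an unadjusted p with the fold limit and 0 of 10 under DESeq2. Floral stem was not entered in this test.

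The organ contrast was the one with calls among the 10 genes that the choice of genes did not use. Between WT leaf and WT root 68.5% of 22442 genes were called, and 7 of the 10 genes were among them, 5 higher in leaf (32.7% of all genes) and 2 higher in root (35.9%). This contrast also holds the differences in age, medium and depth, which cannot be told apart from organ. A second scaling (RLE) shifted all genes by -0.11 on the log2 scale in this contrast and turned none of the 7 directions.

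*COR15A* was at 506 to 623 CPM in WT leaf and 0 to 0.447 in WT root (edgeR FDR = 1.09e-11), and *COR15B* at 269 to 410 against 1.17 to 2.40 (log2FC 7.60, SE 0.336, edgeR FDR = 5.81e-15). In root *COR15A* was at 0 in 2 of 3 WT plants. *CBF3* was higher in leaf by a log2FC of 4.60 (SE 0.845, edgeR FDR = 4.22e-05), at 7.25 to 10.3 CPM against 0 to 0.609. *LTI78* (2.57, SE 0.518, edgeR FDR = 0.000126) and *KIN2* (2.39, SE 0.244, edgeR FDR = 8.84e-09) were also higher in leaf.

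*COR47* and *KIN1* went the other way. *COR47* was at 232 to 299 CPM in WT leaf and 380 to 889 in WT root (log2FC -1.09, SE 0.243, edgeR FDR = 0.000355), and *KIN1* at 3.26 to 6.99 against 69.2 to 120 (-4.30, SE 0.371, edgeR FDR = 4.98e-10). *ERD10*, the neighbour of *COR47*, differed by 0.20 (SE 0.295, edgeR FDR = 0.552), and by 1.00 without WT root plant 2, where it passed the test. *CBF1* was at 0.200 to 0.614 CPM in WT leaf and 0 to 0.406 in WT root (log2FC 1.05, SE 1.10, edgeR FDR = 0.398), and *CBF2* at 0.262 to 0.556 and 0.259 to 0.650 (-0.29, SE 0.978, edgeR FDR = 0.804).

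Among other cold-induced genes 12 of 19 rose and 4 fell from WT root to WT leaf, from *COR413IM1*, a chloroplast inner envelope protein gene (log2FC 9.88, SE 0.706), to *RCI2B*, a small membrane protein gene (-7.64, SE 0.542). Of 22 upstream regulators 16 rose and 3 fell, among them the light signalling factors *PIF4* (8.32, SE 0.572) and *PIF7* (5.86, SE 0.469). Of 12 cold-induced factors 1 rose and 4 fell, *ZAT12* the most (-2.83, SE 0.659). Of 15 abscisic acid and drought genes 8 rose and 4 fell, with *RD20* (8.43, SE 0.698) and *LEA7* (-5.27, SE 1.51) at the ends, though the WT roots spread from 0.0430 to 25.3 CPM of *LEA7* and overlapped WT leaf. All these differences passed an FDR under 0.05 in the edgeR test.

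The order of the genes within an organ was read from CPM per kb of exon in WT. In leaf *KIN2* led with 1126 ± 197 CPM per kb (SD, n = 3), followed by *COR15A* (347 ± 40.4), *LTI78* (264 ± 24.6), *COR15B* (213 ± 44.3), *ERD10* (213 ± 21.6), *COR47* (115 ± 14.4), *CBF3* (6.41 ± 1.12) and *KIN1* (5.49 ± 2.55). In floral stem *KIN2* (466 ± 119), *COR47* (466 ± 20.5) and *ERD10* (411 ± 82.9) were level within their spread. In root *COR47* (245 ± 121), *KIN2* (215 ± 48.2), *ERD10* (186 ± 137) and *KIN1* (108 ± 32.7) led, and *LTI78* had 44.6 ± 51.8. *CBF3* was the highest *CBF* gene in WT leaf (6.41) and WT floral stem (3.72 ± 2.03) and *CBF2* in WT root (0.511 ± 0.216). In leaf the neighbours *LTI78* and *COR15B*, *COR15B* and *ERD10*, and *CBF3* and *KIN1* did not differ beyond the sum of their SDs, and in root no neighbours among the first 5 genes did.

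Across the 9 groups the order of mean CPM differed from gene to gene. *KIN2* ran from leaf (793 to 904 CPM) to WT and Epi 24 floral stem (350 and 284), root (97.0 to 161) and Epi 8 floral stem (63.1), and the 3 leaf groups overlapped, as did the last 4 groups each with its neighbour. *LTI78* ran from 917 CPM in Epi 8 leaf to 22.2 in Epi 8 root, with gaps between Epi 24 floral stem (673) and Epi 8 floral stem (193) and between Epi 24 root (68.2) and Epi 8 root. *COR47* was highest in WT floral stem (1081) and lowest in Epi 10 leaf (205), *ERD10* highest in Epi 24 floral stem (751) and lowest in Epi 8 root (183). *CBF2* was highest in Epi 8 floral stem (7.36), with a gap to all other groups, which overlapped with their neighbours from 1.36 CPM in Epi 8 leaf to 0.341 in Epi 8 root.

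The tandem pair *KIN1* and *KIN2* divided by organ in every plant. *KIN1* held 32.2 to 37.4% of their summed counts in root, 0.335 to 1.05% in leaf and 0.972 to 2.12% in floral stem, without overlap between root and the other organs. In root the lines ranged from 34.5 to 37.4% (Epi 8), 32.2 to 36.6% (Epi 24) and 32.5 to 37.2% (WT). The coding sequences are shown because the 2 genes are close copies whose coding sequences differ at few bases. They have 201 bases each and differ at 10, an identity of 95%, and the bases that differ are in capitals.
*KIN1* (coding bases of AT5G15960, chromosome 5): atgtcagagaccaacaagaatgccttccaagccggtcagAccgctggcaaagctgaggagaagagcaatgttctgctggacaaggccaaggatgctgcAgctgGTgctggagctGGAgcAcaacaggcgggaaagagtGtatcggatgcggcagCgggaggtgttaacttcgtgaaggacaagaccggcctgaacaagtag
*KIN2* (coding bases of AT5G15970, chromosome 5): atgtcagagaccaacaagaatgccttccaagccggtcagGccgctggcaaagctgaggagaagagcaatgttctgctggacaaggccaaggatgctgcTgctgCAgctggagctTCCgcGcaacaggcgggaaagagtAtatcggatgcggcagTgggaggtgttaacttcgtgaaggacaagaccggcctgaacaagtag

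Of the 31-base words in the exons, 6.36% of those of *KIN1* and 6.97% of those of *KIN2* occur elsewhere in the nuclear genome, and the longest shared stretch is 50 bases. For *CBF2* the share was 11% and for *CBF1* 6.91%, with a longest stretch of 68 bases, and for the other 6 genes under 3%. The authors kept uniquely aligned reads, so reads that lie wholly in such stretches would be missing from both copies. Before trimming, the paired reads of the study were longer than these stretches, and how many were lost was not tested. *CBF3* and *COR15B* also overlap an annotated gene on the other strand. The library kit does not mark strand and the strand setting of the counting is not stated, so their counts may hold reads of that gene.

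**Figure D5:**
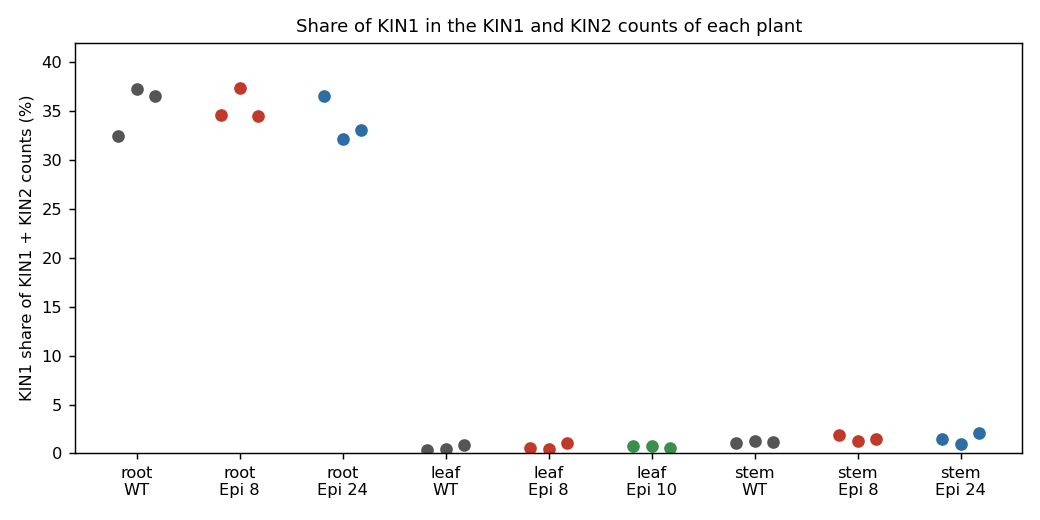
Share of KIN1 in the sum of KIN1 and KIN2 counts (y axis, percent) in each plant of the 9 groups (x axis), 1 point per plant. The 9 roots lie at 32.2 to 37.4% and the leaves and floral stems at 0.335 to 2.12%.

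The *COR15* pair was also counted per plant. *COR15A* held 55.9 to 67% of the *COR15A* and *COR15B* counts in leaf and 43.8 to 62% in floral stem, and 0 to 21.4% in root, where the pair had 14 to 70 counts per plant. Their coding sequences have 82.6% identity, and those of the *CBF* genes 85 to 86.7%.

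After each organ was centred on its own mean, Pearson's r of log2 CPM between COR genes was above 0 for all 21 pairs over the 27 libraries, which include the Epi 8 floral stems behind the choice of genes. It ran from 0.26 (*COR15A* and *KIN1*) to 0.87 (*COR47* and *ERD10*), with 0.86 for *KIN1* and *KIN2*. Within the *CBF* genes r was 0.56 to 0.80, and between *CBF* and COR genes -0.50 (*CBF1* and *KIN2*) to 0.22 (*CBF3* and *COR15A*). The points share lines and depth. Without the 3 Epi 8 floral stems, a choice made after seeing the data, 24 libraries were left. Among COR genes they gave 0.01 (*COR15A* and *KIN1*) to 0.85 (*COR15A* and *LTI78*). Between *CBF* and COR genes they gave -0.11 (*CBF2* and *COR15A*) to 0.58 (*CBF1* and *ERD10*). *COR15A* and *CBF1* were at 0 counts in most roots. For *COR15A* and *LTI78* r was 0.90 within roots and 0.40 within leaves, and for *CBF1* and *ERD10* 0.70 and 0.52. The part of WT root plant 2 in these values was not tested. Within the 9 leaves 7 of the 21 pairs of COR genes had r below 0, down to -0.64 (*COR15B* and *KIN1*), and within the 9 roots 2 of 21, down to -0.11 (*COR15A* and *KIN2*).

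Of 16205 other genes with a mean of at least 5 CPM, the 5 most like the mean COR profile over the 27 libraries were AT5G17460 (Pearson's r 0.93), *HVA22D* (0.91), AT1G16850 (0.87), *COR413-PM1* (0.86) and AT2G23120 (0.85). *HVA22D* is induced by stress and abscisic acid, and *COR413-PM1* is a cold-induced membrane protein gene. The 5 most like the mean *CBF* profile were *KAN2*, a regulator of organ polarity (0.86), *MYB4*, a repressor of phenylpropanoid genes (0.84), AT1G18740 (0.83), AT1G22190 (0.83) and *HYH*, a light signalling bZIP factor (0.81). Both profiles include the floral stems behind the choice of genes, so these r values and rankings are a description. Likeness without those stems was not tested.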

How the data were processed

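RNA-seq counts per gene were taken from 27 libraries, 1 per plant, of root, rosette leaf and floral stem. The authors prepared the libraries with the TruSeq RNA v2 kit, which does not mark strand, trimmed reads, aligned them to TAIR10 with STAR 2.7.3a, kept unique alignments, and counted them with QoRTs at a mapping quality of at least 25. Per the labels they used edgeR 3.26.8 for their own tests. The strand setting of the counting is not stated. The deposited counts are whole numbers without normalization, and rows that name no gene (unassigned reads of 0.681 to 6.17% and ambiguous reads of 0.254 to 0.987% of a library) were left out.

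Groups came from the sample labels. Counts were filtered with filterByExpr, scaled by TMM and tested with edgeR 4.0.16 (quasi-likelihood, Benjamini-Hochberg over all genes tested) in R 4.3.3, with calls at FDR under 0.05 and an absolute log2FC of at least 0.5. Each organ was fitted on its 9 libraries, and WT leaf against WT root and the leaf-minus-root difference of Epi 8 on all 27. The SE was the log2FC divided by the root of F. The scripts were tested on simulated data. Alternatives were DESeq2 1.42.0, RLE scaling, no filter, no fold limit, an unadjusted p, the compared groups alone, a plant block, and each plant left out. Each library came from a separate plant of its family.

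Sequences, coordinates and exon lengths came from TAIR10.1 in RefSeq, where 32548 of 33977 gene identifiers matched. That build was taken for annotation only, since the counts carry identifiers and no coordinates. All 10 members were named in every organ. From 4 pathway lists the called genes (at most 4 per list and comparison) or, with none called, at most 2 with the smallest p were named, and exceptions are marked in the text. The 5 genes most like the COR or *CBF* profile had the highest Pearson's r with the mean z-score among genes of at least 5 CPM. The members and lists were chosen with earlier results of these data known.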

Additional observations from a re-analysis of the deposited data

Results flagged for a closer look

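*ERD10* was the 1 gene of the 10 for which every plant of Epi 8 lay below every WT plant in one organ and above every WT plant in another. Its log2FC of Epi 8 against WT was -0.9997 in floral stem (292 to 359 CPM against 534 to 804) and 0.46 in leaf (456 to 503 CPM against 306 to 373). In leaf *ERD10* was not called. Over all genes Epi 8 and WT did not overlap, in either direction, for 12.2% in floral stem and 25.9% in leaf. The share of all genes on opposite sides in these organs was not counted. Over the 10 genes 40 pairs of organs were compared for this pattern. The difference between floral stem and leaf was not tested, because the choice of the 10 genes used the floral stem values.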

How the results depend on the processing

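The count of the 10 genes called kept its value, or stayed within 1.5 times of it, under all alternatives in Epi 24 against WT and Epi 8 against Epi 24 roots, in the leaf comparisons and in WT leaf against WT root, apart from the unadjusted p. With an unadjusted p and the fold limit the count was 2 for Epi 8 and 2 for Epi 24 against WT roots, 1 between their roots, 1 for Epi 8 against WT leaf, 10 for Epi 8 against WT floral stem, 8 for Epi 8 against Epi 24 floral stem and 3 for the leaf-minus-root difference. With no filter 1 gene was called in Epi 8 against WT root. DESeq2 called 10 in Epi 8 against WT and 8 in Epi 8 against Epi 24 floral stem, where the main test called 2 and 2, and the compared groups alone gave 0 for Epi 8 against WT floral stem. The choice of genes used the Epi 8 floral stems, so none of these floral stem counts is evidence about the 10 genes. With 1 plant left out the count ran from 0 to 3 for Epi 8 against WT floral stem, from 0 to 0 for Epi 8 against Epi 24 floral stem and from 7 to 8 for WT leaf against root. The cause was not tested.

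Plants with the same number deviated together in no pair of groups by more than 0.1 in all 3 plants. The nearest were Epi 8 and WT leaves (r of 0.213, 0.025 and 0.213) and Epi 24 and Epi 8 floral stems (0.211, 0.065 and 0.181), so the numbers were not read as pairs. A replicate block on plant number gave 0 calls among the 10 genes for Epi 8 against Epi 24 floral stem and the same count of members as the main test in the other comparisons. It turned the sign of *CBF2* to -0.044 in Epi 24 roots and to -0.042 in Epi 10 leaves against WT.

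Signs of the log2FC of uncalled genes turned with 1 plant left out, over the following ranges. In Epi 8 against WT root *COR47* ran from -0.69 to 0.015 and *ERD10* from -1.05 to 0.056, and in Epi 24 against WT root *COR47* ran from -0.57 to 0.12, *ERD10* from -0.84 to 0.26 and *LTI78* from -1.29 to 0.78, each with its highest value without WT plant 2. *CBF2* ran from -0.92 to 0.61 in Epi 24 against WT root and from -1.19 to 0.34 in Epi 8 against Epi 24 root. In Epi 8 against WT leaf the ranges were -0.20 to 0.20 (*CBF3*), -0.065 to 0.22 (*COR47*) and -0.035 to 0.25 (*KIN2*). In Epi 10 against WT leaf they were -0.20 to 0.56 (*CBF2*), -0.056 to 0.14 (*ERD10*), -0.18 to 0.06 (*KIN2*) and -0.076 to 0.10 (*LTI78*). In Epi 8 against Epi 10 leaf they were -0.20 to 1.96 (*CBF1*), -0.27 to 1.90 (*CBF2*), -0.054 to 0.26 (*COR15A*), -0.067 to 0.09 (*COR15B*) and -0.12 to 0.42 (*KIN1*). In Epi 24 against WT floral stem they were -0.0018 to 0.32 (*ERD10*) and -0.21 to 0.34 (*KIN1*). The difference of WT leaf from WT root ran from -0.11 to 1.00 for *ERD10*, and the leaf-minus-root difference of *COR15A*, at 0 counts in most roots, from -0.22 to 5.83.

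Over all genes the main calls were 0, 0 and 4 in root (Epi 8 and Epi 24 against WT, Epi 8 against Epi 24), 191, 0 and 0 in leaf (Epi 8 and Epi 10 against WT, Epi 8 against Epi 10) and 5, 0 and 3 in floral stem. In the same order DESeq2 called 30, 25 and 134, then 702, 21 and 59, then 376, 22 and 697. Without the filter the counts were 8, 10 and 57, then 237, 0 and 0, then 27, 0 and 3. The compared groups alone gave 0, 0 and 1, then 43, 3 and 0, then 1, 1 and 9, and the block gave 0, 0 and 0, then 42, 0 and 0, then 7, 0 and 0. With 1 leaf plant left out, Epi 8 against WT had 0 to 170 calls. The leaf-minus-root difference had 0 calls, 37 with DESeq2, 68 with the compared groups alone and 1566 at an unadjusted p. In root the *CBF* genes had at most 26 counts and *COR15A* was at 0 counts in 6 of 9 plants, and the size of difference that such counts could show was not tested.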
